A study of Mus musculus with 2 samples.

Results

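The genes described here encode enzymes of heme synthesis: Alas2, Alas1, Alad, Uros, Urod, Cpox, Ppox and Fech. They are 8 of the 21938 protein-coding genes of the GENCODE M21 annotation on chromosomes 1 to 19, X and Y, and they were taken from a list of pathway members, not from any measured value. Open chromatin around them was read from ATAC-seq, in which a transposase cuts accessible DNA and tags the cut ends for sequencing. The samples were primary erythroblasts, which are red cell precursors that still have a nucleus, from adult male mice of the strain C57BL/6J at an age of 5 to 6 weeks. The series has 1 group with 2 biological replicates of 50000 cells each, with no mutant allele, transgene or treatment named in the labels, so nothing could be compared between conditions and no test was run. The replicates have separate biosamples under the same donor identifier, so how independent they are is not known from the labels.

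Heme synthesis starts in mitochondria, where glycine and succinyl-CoA are joined to 5-aminolevulinic acid. The middle steps run in the cytosol, and the last steps return to mitochondria, where iron is inserted into protoporphyrin. Alas2 encodes the erythroid form of the first enzyme and Alas1 the form found in most tissues. In erythroid cells the pathway is known to be driven by GATA1, which binds DNA at the core letters GATA, and human ALAS2 is known to carry erythroid regulatory elements with GATA sites in its first and eighth introns.

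For each gene, the deposited intervals that overlap the gene body or the 50 kb on either side were collected in mm10 coordinates. An interval was assigned to the promoter when any part of it came within 1 kb of a start site annotated for a transcript of the gene, was called intragenic when it otherwise overlapped the gene body, and lay outside in all other cases. Each replicate has a list thresholded at an irreproducible discovery rate (IDR) of 0.05 and a longer, less strict list, called pseudoreplicated. The IDR is an estimated rate of intervals that would not recur, so a low IDR means a reproducible interval. The replicated list was made by the authors from both replicates. Enrichment is the authors' own value, the fold of the summit over background, and it is used here to describe intervals and to rank them within a list. An interval of replicate 1 was shared when it overlapped an interval of replicate 2 by at least 1 bp.

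The thresholded lists held 17777 intervals in replicate 1 and 18837 in replicate 2, with a median enrichment of 7.83 and 7.74. They give no read counts, so the depth behind each interval is unknown. All 12 erythroid markers, among them Gata1, Klf1, Epor and the adult globin genes, had a promoter interval in both thresholded lists. The share over all protein-coding genes was 41.4%. Of 28 markers of other blood cells, 3 had one, all of them megakaryocyte genes (Itga2b, Gp1ba and Vwf). None of the 5 macrophage, 5 granulocyte and monocyte, 4 B cell, 4 T cell or 5 stem and progenitor markers had one. The label of replicate 2 names 2 instrument models and that of replicate 1 none, so instrument and replicate cannot be told apart.

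The sequences below are examples for the account of GATA motifs, whose counts rest on the summit windows of all 40 shared intervals. They were chosen after their values were seen, because each one holds a GATA motif. Windows without one, and others with one, are counted further on. The first is the stretch just before the Alas2 start, chrX:150547225-150547374, which is not among those windows. The others are windows of 75 bp on each side of the strongest summit of an interval in replicate 1. The windows of Alas2 are chrX:150549714-150549864 in intron 1, chrX:150564771-150564921 in intron 8 and chrX:150516142-150516292 upstream. The window of Alad is chr4:62516737-62516887, in intron 1. The window of Uros is chr7:133698124-133698274, that of Urod chr4:116993738-116993888, and that of Cpox chr16:58661987-58662137. All were read from the GRCm38.p6 genome, whose coordinates are those of mm10, and are written 5′ to 3′ on the strand of the gene, which is the plus strand for Alas2 and Cpox and the minus strand for Alad, Uros and Urod. Capitals mark AGATAA or AGATAG or TGATAA or TGATAG, on either strand.
Alas2 upstream of the start: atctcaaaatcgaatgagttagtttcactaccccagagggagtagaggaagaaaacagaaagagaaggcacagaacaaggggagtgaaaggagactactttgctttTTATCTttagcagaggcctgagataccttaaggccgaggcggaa
Alas2 intron 1: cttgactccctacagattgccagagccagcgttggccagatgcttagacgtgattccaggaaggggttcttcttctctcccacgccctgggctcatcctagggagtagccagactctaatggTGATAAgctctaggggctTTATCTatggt
Alas2 intron 8: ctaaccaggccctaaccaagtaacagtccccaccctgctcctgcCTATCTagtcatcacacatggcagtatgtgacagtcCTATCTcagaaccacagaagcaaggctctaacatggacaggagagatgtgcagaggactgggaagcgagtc
Alas2 distal upstream: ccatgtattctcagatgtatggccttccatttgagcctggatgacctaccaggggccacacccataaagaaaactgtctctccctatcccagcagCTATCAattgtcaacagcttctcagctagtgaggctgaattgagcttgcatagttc
Alad intron 1: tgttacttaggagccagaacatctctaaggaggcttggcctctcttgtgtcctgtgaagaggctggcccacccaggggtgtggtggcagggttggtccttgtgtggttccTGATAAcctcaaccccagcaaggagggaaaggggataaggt
Uros internal site: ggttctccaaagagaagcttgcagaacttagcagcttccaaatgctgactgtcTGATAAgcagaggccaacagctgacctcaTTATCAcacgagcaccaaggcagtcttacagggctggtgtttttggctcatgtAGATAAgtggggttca
Urod internal site: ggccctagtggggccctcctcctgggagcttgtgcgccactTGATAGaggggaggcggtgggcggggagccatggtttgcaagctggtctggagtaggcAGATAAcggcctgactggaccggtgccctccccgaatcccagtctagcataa
Cpox upstream site: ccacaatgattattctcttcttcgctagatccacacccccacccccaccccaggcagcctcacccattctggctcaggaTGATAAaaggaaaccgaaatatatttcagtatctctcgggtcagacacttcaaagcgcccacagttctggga

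In the thresholded lists Alas2 had intervals inside its introns and none at its start, in both replicates and with nearly the same enrichment. It lies on chromosome X from 150547375 to 150570638, on the plus strand, with 11 exons and 4 annotated start sites. Each thresholded list held 2 intragenic intervals and no promoter interval. This count depends on the promoter width: the intron 8 site lies 1544 bp before an annotated internal start, so with promoters of 2 kb either side Alas2 had 1 shared intragenic interval and counted as open at a promoter. In intron 1 the enrichment was 7.78 in replicate 1 and 7.90 in replicate 2 (mean 7.84 ± 0.0841, SD, n = 2), with summits at 150549789 and 150549890, about 2.41 kb after the start in replicate 1. In intron 8 it was 12.9 in replicate 1 and 12.7 in replicate 2 (mean 12.8 ± 0.134, SD, n = 2), with summits at 150564846 and 150564837, 17.5 kb after the start. The intron 8 site ranked at or above 91.9% of the thresholded intervals of replicate 1 and 91.1% of those of replicate 2, whereas the intron 1 site ranked near the middle, at or above 49.3% and 51.8%.

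The start of Alas2 was weakly open. In the pseudoreplicated lists its promoter interval had an enrichment of 3.54 in replicate 1 and 3.99 in replicate 2 (mean 3.77 ± 0.318, SD, n = 2), with the summit 48 bp after the start in replicate 1. Both replicates gave the same order, with intron 8 above intron 1 and intron 1 above the start. Within each replicate, the IDR of this interval was 0.194 and 0.197, over the threshold of 0.05, against 0.00205 and 0.00260 at the intron 8 site. Among all promoter intervals of the pseudoreplicated lists it ranked at or above 14.1% and 20.2%. Its enrichment was similar to that of the Alad promoter, 3.58 and 3.62, which was thresholded in both replicates. The threshold, set on the IDR, and not the enrichment thus separated these genes. The −log10 p of the authors' peak caller also differed, at 14.6 and 18.5 for Alas2 and 22.6 and 23.7 for Alad. The Alas2 interval also lies within 1 kb of the start of Mir3620, a microRNA gene. The interval was listed with an enrichment of 3.83 in the replicated list and in the conservative list of both replicates, and not in the thresholded list of both. In the conservative list it had a score of 1000, the highest possible, as did the intron 8 site. This score does not separate strong from weak sites, since a Urod interval with an enrichment of 2.71 had it too. By enrichment in that list, the Alas2 promoter interval ranked at or above 10.1% of intervals and the intron 8 site 93.9%.

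The less strict lists added weaker sites in the Alas2 introns. Each pseudoreplicated list held 3 intragenic intervals, the weakest of them in intron 1 with an enrichment of 2.08 in replicate 1 and 2.74 in replicate 2. The replicated list held 12 intervals in the Alas2 window, of which 4 were intragenic, 2 at promoters and 6 outside. Its second promoter interval lay in intron 4, 193 bp after an annotated internal start, with an enrichment of 2.77.

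Upstream of Alas2 lay a pair of sites away from every annotated start. The nearer one, 31.2 kb before the start, had enrichments of 9.33 and 8.64 (mean 8.98 ± 0.487, SD, n = 2). The farther one, 36.5 kb before the start, had 8.69 and 6.95 (mean 7.82 ± 1.23, SD, n = 2). Downstream, the shared intervals stood at the starts of neighbouring genes. The interval at the start sites of Apex2, a DNA repair nuclease, and Pfkfb1, an enzyme of glycolysis control, had enrichments of 13.1 and 13.7, and a second one at Pfkfb1 had 7.07 and 8.45. Alas2 is on the X chromosome, present once in male cells, and the part of this in its promoter value was not tested. Pgrmc1, also on X, had a promoter enrichment of 9.85 ± 0.914 (SD, n = 2).

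Alas1 had a different layout, with an interval at its start and none inside the gene that both replicates shared. It lies on chromosome 9 from 106233455 to 106248654, on the minus strand, with 11 exons and 13 start sites. A thresholded promoter interval was present in replicate 2, with an enrichment of 5.26 and an IDR of 0.0388. In replicate 1 the same stretch was listed in the pseudoreplicated list, with an enrichment of 5.82, and its IDR of 0.0777 kept it out of the thresholded one. So the promoter value was close in both replicates (mean 5.54 ± 0.395, SD, n = 2, in the pseudoreplicated lists) and the threshold fell between them. This interval also lies within 1 kb of a start of the neighbouring 4930500F10Rik. A second, weaker interval at the Alas1 start sites had 3.00 and 2.60 in the pseudoreplicated lists.

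Away from its start sites, Alas1 had a single intragenic interval, in intron 9, with an enrichment of 3.16, which was in the pseudoreplicated and ranked lists of replicate 1 and in no list of replicate 2 or of both. A site 40.4 kb before the start, away from all annotated starts, had 5.45 and 5.95 in the pseudoreplicated lists. It was thresholded in neither replicate, but was in the thresholded list made from both, with 6.17. The other intervals of the window that were thresholded in a replicate stood at starts of other genes. Twf2, an actin-binding protein, had an interval with 10.4 and 9.68 and another, with 5.22, that was thresholded in replicate 1 alone. Poc1a, a centriole protein, had 10.3 and 10.6.

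Set side by side in the thresholded lists of the replicates, Alas2 had 2 shared intragenic intervals and Alas1 had 0. There Alas2 also had 4 shared intervals away from all annotated starts and Alas1 had 0. In the pseudoreplicated lists the shared intervals away from starts numbered 6 for Alas2 and 1 for Alas1. By promoter enrichment the order was the other way: 3.54 and 3.99 for Alas2, against 5.82 and 5.26 for Alas1, without overlap. The −log10 p of the authors' peak caller did overlap, at 14.6 and 18.5 for Alas2 and 17.2 and 15.0 for Alas1. The part of the single X copy of Alas2 in this order was not tested. The promoter of Alas2 is also the one with fewer CpG dinucleotides. In the RefSeq promoter table, which gives 300 bases around each start and matched 7 of the 8 genes, the ratio of observed to expected CpG was 0.318 for Alas2 and 0.854 for Alas1, against a median of 0.384 over 32851 promoters. The Alas2 promoter held 1 GATA motif and the Alas1 promoter 0, and 29.8% of all promoters of that length held at least 1.

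**Figure D1:**
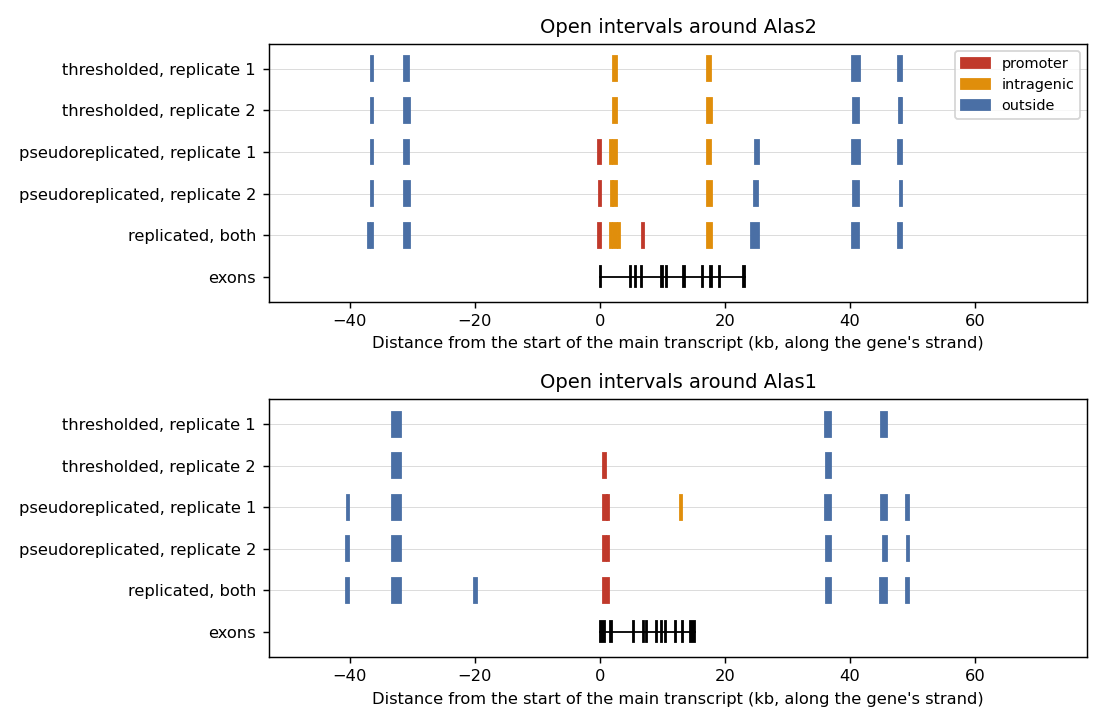
Intervals around Alas2 (upper panel) and Alas1 (lower panel) in each list, by distance in kb from the start of the main transcript along the strand of the gene; bars span the intervals, colours give promoter, intragenic and outside, and black marks are exons. The 2 intron sites of Alas2 stand in every list, and its start is marked in the pseudoreplicated and replicated lists, whereas Alas1 has its marks at the start and 1 intragenic interval in 1 of the lists drawn.

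A gene with 2 or more shared intragenic intervals was not common. Alas2 was the 1 such gene among the 8, and 3.83% of all protein-coding genes (841 of 21938) had as many. Genes with at least 1 numbered 3 of the 8 (Alas2, Alad and Fech), against 11.3% of all. Genes with no thresholded promoter interval in either replicate and 2 or more shared intragenic ones made up 0.843% of all (185 genes), Alas2 among them. Alas2 is 23.3 kb long and Alas1 15.2 kb, and the part of gene length in these counts was not tested.

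By a fixed measure, 7 genes were tied as most like Alas2, and the 5 named here, with ties taken by more intragenic intervals and then by symbol, are Camkk2, Adarb1, Gramd4, Lrp1 and Dpep2. The measure summed the differences in the counts of shared intragenic and shared outside intervals, over the 690 genes with the same promoter state, which is an interval in both pseudoreplicated lists and in neither thresholded list. Alas2 had 2 and 4. No other gene had the same pair of counts, and all 7 differed by 1. Camkk2 had 3 intragenic and 4 outside, Gramd4 2 and 5, Adarb1 and Lrp1 2 and 3 each, and Dpep2 1 and 4, the same as Kcnip2 and Rasal1.

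Each of the 6 genes described here that act after the first step had a promoter interval in both thresholded lists. Thus 6 of the 8 genes were open at a promoter in both replicates, against 41.4% of all protein-coding genes. By list, 6 were open in replicate 1 (42.2% of all genes) and 7 in replicate 2 (42.8%). All 8 were open in both pseudoreplicated lists (46.6%) and in the replicated list (50.7%). The thresholded list made from both replicates had 7, without Alas2 (45.3%), and the conservative list had 8 (45.7%).

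These promoters were open but not strongly so. Mean enrichment over the replicates of the strongest promoter interval ran from 3.60 at Alad to 8.78 at Uros, with a median of 6.77 over the 6 genes. The median over all promoter intervals was 8.78 in replicate 1 and 8.77 in replicate 2. In replicate 1 each of the 6 was below that median, and in replicate 2 Uros alone was above it.

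**Figure D2:**
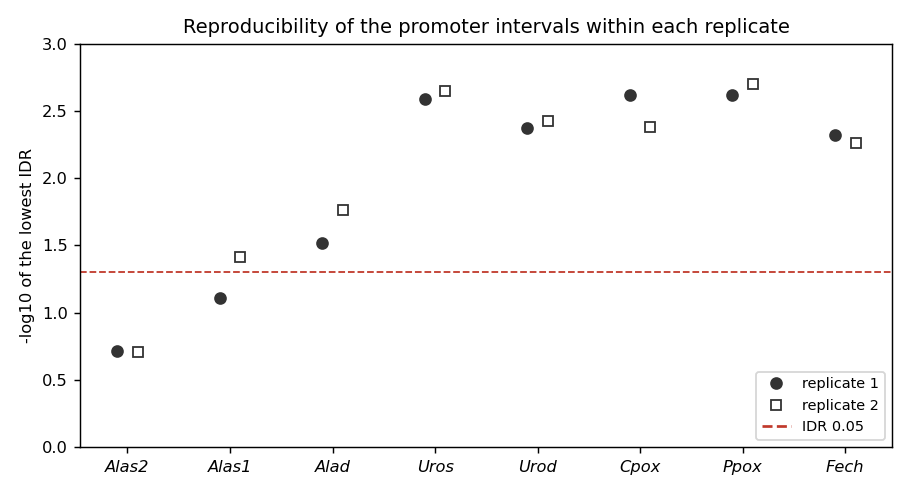
The lowest IDR of a promoter interval of each gene, as −log10, in replicate 1 (filled circles) and replicate 2 (open squares), with the threshold of 0.05 as a dashed line. Alas2 lies below the line in both replicates, Alas1 on either side of it, and the other 6 genes above it in both.

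Alad, which joins a pair of 5-aminolevulinic acid molecules into porphobilinogen, had the weakest promoter interval of the 6 and a stronger site in its first intron. The promoter had 3.58 and 3.62 (mean 3.60 ± 0.0266, SD, n = 2), with the summit 36 bp before the start in replicate 1, and ranked at or above 2.36% and 2.63% of promoter intervals. The intron 1 site, 3.11 kb after the start, had 5.79 and 5.73 (mean 5.76 ± 0.0473, SD, n = 2). Human ALAD is known to have separate housekeeping and erythroid first exons. A further intron 1 interval, with an enrichment of 3.05, was thresholded in replicate 1 alone. Of the shared outside intervals, 1 lay away from all starts, 33.9 kb from the Alad start beyond the 3′ end of the gene, with 7.26 and 7.28.

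Uros, the uroporphyrinogen III synthase, had several open start sites. The interval at its main start, shared with Bccip, had 8.65 and 8.90 (mean 8.78 ± 0.176, SD, n = 2). An interval in intron 1 of the main transcript, 6.68 kb from the main start and 12 bp after an annotated internal start, had 7.66 and 7.34 (mean 7.50 ± 0.227, SD, n = 2). Another in intron 5, 11.1 kb from the main start and 119 bp before an annotated start, had 5.03 and 5.14 (mean 5.09 ± 0.0783, SD, n = 2). Uros is known to have separate housekeeping and erythroid promoters in human and mouse. A further promoter interval, with 6.25, was thresholded in replicate 2 alone. Because these sites come within 1 kb of annotated starts, the gene has no intragenic interval by the rule used here.

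Urod, which removes carboxyl groups from uroporphyrinogen, had its strongest interval in intron 1, 0.6 kb after the main start. It had 6.38 and 6.63 (mean 6.50 ± 0.171, SD, n = 2). In replicate 1 it was a single interval of 1254 bp that met 2 intervals of replicate 2. A second promoter interval, 899 bp before the start, had 4.14 and 4.88. The second one, and the wider interval of replicate 1, also lie within 1 kb of a start of Hectd3, the divergent neighbour. Past the end of Urod, 7.44 kb from its start, a site away from all starts had 7.57 and 7.49.

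Cpox, the coproporphyrinogen oxidase, had a single promoter interval, with 8.74 and 7.77 (mean 8.26 ± 0.688, SD, n = 2). Before it lay 3 shared sites away from every start. The site 11.5 kb upstream had 4.67 and 4.97, that 8.23 kb upstream had 6.82 and 5.90, and that 7.12 kb upstream had 5.12 and 5.54. A pair of intervals about 42.5 kb upstream was thresholded in replicate 1 alone. Inside the gene no interval was in the thresholded list of a replicate or in that of both. The conservative list held 2 intragenic intervals and the replicated list 3.

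Ppox, the protoporphyrinogen oxidase, stands in a gene-dense stretch of chromosome 1. Its promoter interval, shared with Usp21, had 7.05 and 7.03 (mean 7.04 ± 0.0125, SD, n = 2). The other 5 shared intervals of the window all lay at starts of other genes, among them B4galt3, Usp21, Ufc1 and Dedd. In replicate 2 alone, 4 more intervals away from all starts were thresholded, with enrichments from 5.22 to 7.63. Ppox thus had 0 shared intervals away from all starts.

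Fech, the ferrochelatase that inserts iron, had a pair of promoter intervals and an intron site. The interval at its main start had 4.45 and 4.35 (mean 4.40 ± 0.0686, SD, n = 2). The stronger one, with 5.71 and 5.10 (mean 5.41 ± 0.428, SD, n = 2), had its summit 2.34 kb before the main start and 1185 bp before the nearest annotated start, and its edge reached within 1 kb of that start. The intron 1 site, 3.24 kb after the main start, had 4.90 and 5.01 (mean 4.95 ± 0.0750, SD, n = 2). An intron 2 interval with 3.82 was thresholded in replicate 2 alone. Upstream, sites away from all starts lay at 17.6 kb, with 7.41 and 7.17, and at 38.4 kb, with 9.05 and 8.19. Interspersed with them, a pair of intervals at starts of Nars, a tRNA synthetase gene, had 12.1 and 12.8, and 11 and 10.8.

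**Figure D3:**
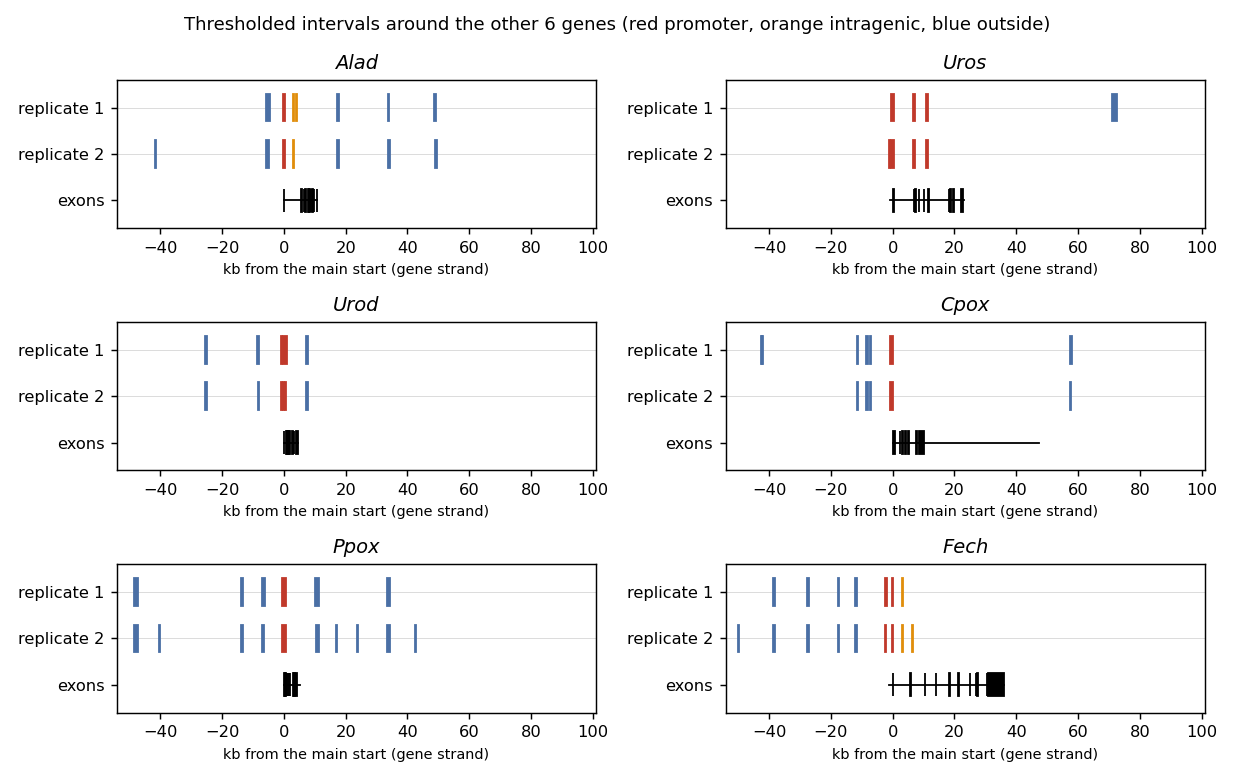
Thresholded intervals of each replicate around Alad, Uros, Urod, Cpox, Ppox and Fech, by distance in kb from the main start along the strand of the gene; red bars are promoter intervals, orange intragenic and blue outside, and black marks are exons. Uros has 3 red bars in replicate 1, Cpox has a blue group of 3 before its start, and Alad and Fech have an orange bar near the start in both replicates.

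Over the 8 windows, replicate 1 had 45 thresholded intervals (10 promoter, 5 intragenic and 30 outside) and replicate 2 had 51 (13, 5 and 33). Of these, 88.9% of the intervals of replicate 1 and 82.4% of those of replicate 2 were found in the other replicate. The same shares over the whole lists were 91.1% and 86.3%. The 40 shared intervals of replicate 1 comprised 10 at promoters, 4 intragenic and 26 outside, and all 40 were in the replicated list. Their summits lay a median of 5.5 bp apart, and 32 of them within 10 bp. The largest shift, 350 bp, was at Poc1a. Of the 14 intervals thresholded in 1 replicate alone, 5 were of replicate 1 and 9 of replicate 2. The less strict list of the other replicate held 4 of those 5 and 8 of those 9.

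The 8 windows held a median of 5.5 shared intervals each, and the windows of all protein-coding genes a median of 2. Most of the intervals outside the 8 genes were not distal: 17 of the 26 lay within 1 kb of a start of another gene. Such a majority was not particular to these windows. Of all shared thresholded intervals, 10009 of 16190 lay at a start site. The 13 shared intervals away from all starts divided as 4 in the window of Alas2, 3 each in those of Cpox and Fech, 2 in that of Alad, 1 in that of Urod and 0 in those of Alas1, Uros and Ppox.

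**Figure D4:**
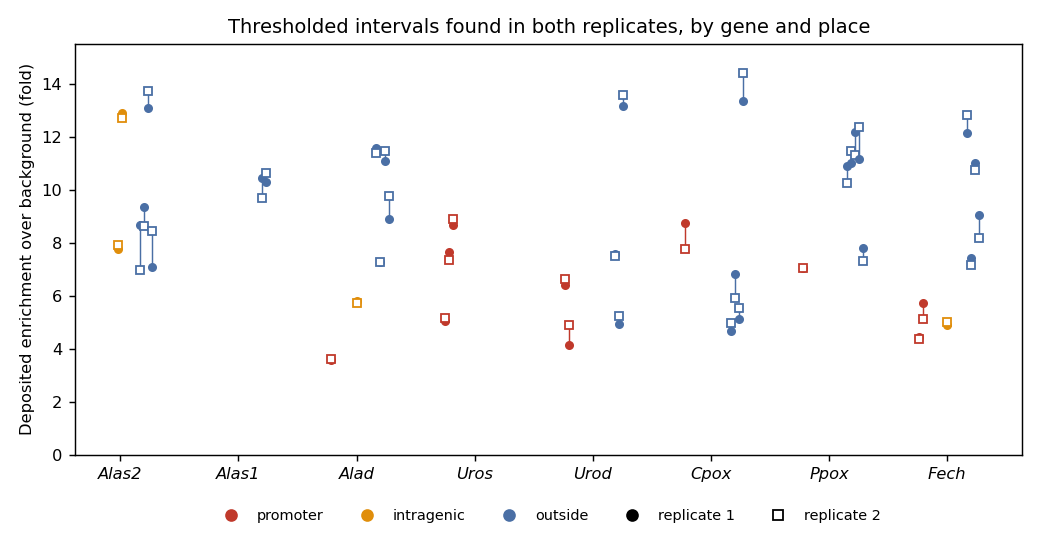
Deposited enrichment (fold over background) of each shared thresholded interval in replicate 1 (filled circles) and replicate 2 (open squares), joined by a line, by gene and by place. The orange points of Alas2 reach 12.9 and 12.7, above every promoter point (red) of the 8 genes, and Alas1 has no red or orange point.

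Each summit of a shared interval, with 75 bp on either side, was searched for motifs in both directions of the sequence, and a match describes letters and not binding. The GATA motif, written as in the capitals above, was present in 16 of the 40 windows, or 40%, against 27% of all 16190 shared intervals. In the longer replicated list it was in 25 of 90 windows, against 26.8% of all, so the difference depends on the list. By place in the thresholded lists, the motif was in 6 of the 10 windows at the genes' own promoters, against 13.8% of all shared intervals at a start site. It was in 3 of the 17 at starts of other genes. Among the windows away from all starts it was in 7 of 13, or 53.8%, against 48.3% of all such intervals, so the share there was near the background.

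At the promoters the windows with a GATA motif belonged to Cpox, Urod, both Fech intervals and both internal Uros intervals. The windows at the starts of Alad and Ppox and at the main start of Uros had none. The intron 5 window of Uros printed above held 3 GATA motifs and that of Urod 2. The Fech intervals are not printed. Both Alas2 intron windows held 2 GATA motifs each, and the window 31.2 kb upstream held 1. The window 36.5 kb upstream of Alas2 held 0. In the Alas2 stretch before the start, the motif begins at base 107 of the 150 printed.

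**Figure D5:**
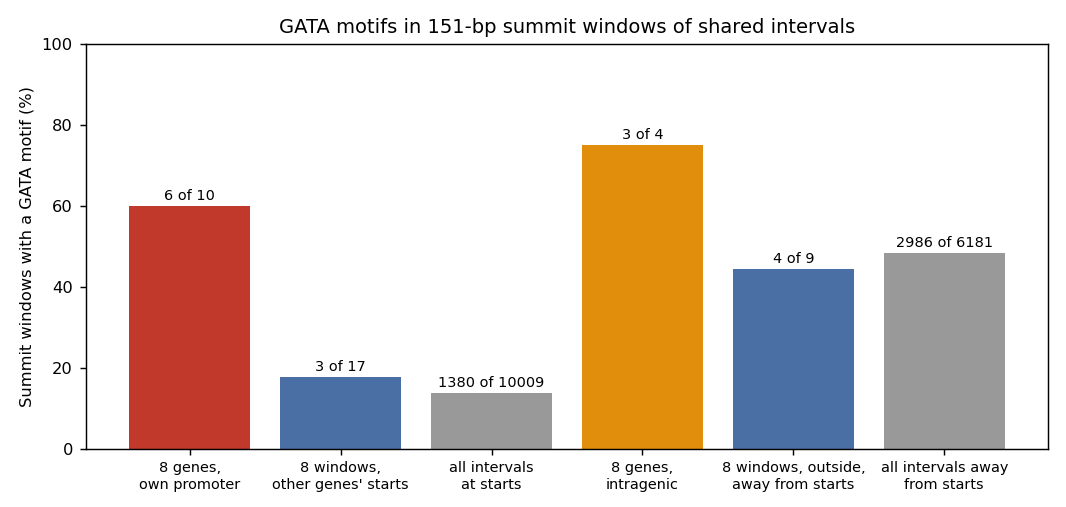
Share of summit windows with a GATA motif, in percent, for the shared intervals of the 8 genes by place and, in grey, for all shared intervals at start sites and away from them; the counts stand over the bars. The bar of the genes' own promoters (6 of 10) is above the grey bar of all starts, and the bar outside and away from starts (4 of 9) is near its grey bar.

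A composite motif, CTG followed by 7, 8 or 9 bases of any kind and then GATA, is the pattern of the GATA1 and TAL1 complex, and its GATA part can overlap the GATA motif. It was in 7 of the 40 windows, or 17.5%, against 10.9% of all shared intervals. Away from all starts it was in 3 of 13, or 23.1%, near the 21% of all such intervals. Those 3 were the Alas2 intron 8 window, the Alas2 window 31.2 kb upstream and the printed window of Cpox. At start sites it was in 4 of 27, or 14.8%, against 4.62%, among them the printed windows of Uros and Urod. The Alas2 intron 1 window had none. CCNCNCCC, the CACCC pattern that KLF factors bind, was in 21 of 40, or 52.5%, against 43%. It was in both Alas2 intron windows and in the Alad intron 1 window, and 5 matches, 4 of them overlapping, lay in the Cpox window 8.23 kb upstream. TGANTCA was in 1 of 40 against 5.7% and CCGGAAG in 4 of 40 against 9.73%.

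Of 25 further genes tied to heme synthesis, covering mitochondrial carriers, iron-sulfur cluster assembly, heme export and breakdown and heme sensing, 24 had a promoter interval in both thresholded lists, against 41.4% of all protein-coding genes. The exception was Hmox1, the inducible heme oxygenase, whose promoter had 4.07 and 4 in the pseudoreplicated lists with an IDR of 0.339 and 0.159. The highest mean enrichments were those of Blvra, a biliverdin reductase (16.5 ± 0.642, SD, n = 2 as for the others), Hmox2, the constitutive heme oxygenase (13.9 ± 0.987), Flvcr1, a heme exporter (13.3 ± 0.278), and Nfs1, the cysteine desulfurase that supplies sulfur to iron-sulfur clusters (11 ± 0.0545). The median was 6.77 over the 6 open enzyme genes and 7.68 over the 24 open genes of this list, whose lowest was 4.27, at Abcb10. At least 1 shared intragenic interval was found in 11 of the 25, against 11.3% of all genes, and at least 2 in 7, against 3.83%. The pairing seen at Alas2, of no thresholded promoter interval with 2 or more shared intragenic ones, was in 0.843% of all genes. None of the 25 had it, but Hmox1 alone lacked a thresholded promoter interval, so the other 24 could not have shown it.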

How the data were processed

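ATAC-seq libraries of 2 biological replicates of mouse erythroblasts were used, in mm10 coordinates per the labels. No aligner, peak caller or version is given in the sources used here. The deposited lists give for each summit a score of at most 1000, the authors' enrichment (a fold over background), the −log10 p of the authors' peak caller and, in the ranked lists, the −log10 of the global IDR, per the file listings and the values. They hold no counts, so depth is unknown and no interval or floor for counting error is given.

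Distinct intervals on chromosomes 1 to 19, X and Y were kept, described by their strongest summit, assigned to a place by any overlap, and converted to 1-based positions. A score of 540 is the lowest of the thresholded lists. Genes and start sites came from GENCODE M21, sequence from GRCm38.p6, within whose chromosome lengths all intervals end, and CpG ratios from the RefSeq promoter table of the same assembly. Scripts used Python 3.11.15, pandas 2.3.3, numpy 2.4.6 and matplotlib 3.10.9 and were tested on simulated data. Means and SDs over 2 replicates describe values of separate lists.

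All 8 enzyme genes are named. Of the 25 further genes, those not open in both replicates and the 4 open ones of highest mean enrichment are named, as are the 5 genes most like Alas2 and the genes whose starts share an interval. Abcb10, Pgrmc1 and neighbours farther off were named after their values were seen. Genes, lists and motifs were chosen with earlier results of these data known. Other enzymes of the pathway were not analysed here. The alternatives were other lists, other promoter widths and start sites, the strongest summit in place of any overlap, a narrower motif window, stronger intervals alone, and each replicate left out.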

Additional observations from a re-analysis of the deposited data

How the results depend on the processing

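Of 73 counts recomputed under 13 alternative settings, 62 stayed within 1.5 times of the reported count and 11 moved. With the pseudoreplicated lists the shared intervals of the 8 windows numbered 65, of which 26 lay away from all starts, against 40 and 13 as reported. GATA motifs were in 21 of those 65 windows, against 27.4% of all intervals shared by the pseudoreplicated lists. In the replicated list the intervals numbered 90 and 43, and Alas2 had 4 intragenic intervals. GATA motifs were in 25 of those 90 windows, against 26.8% of all intervals of that list, so the share was near the background there. With promoters of 2 kb either side, Alas2 had 1 intragenic interval, since the intron 8 site lies 1544 bp before an annotated internal start, and 7 of the 8 genes were open at a promoter, Alas2 among them by that site. With the upper 3 of 5 groups by enrichment, 2 genes were open (Uros and Cpox), and shared intervals numbered 26, 7 of them away from all starts. Leaving out a replicate gave 16 to 20 intervals away from all starts (20 without replicate 1). Alas1 had 0 shared intragenic intervals under every alternative. The 18 recomputed promoter enrichments say nothing of stability, since with 2 replicates each one lies within 1 SD of the mean and the less strict lists hold the same intervals. No paired analysis was possible because there is 1 group.

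With 2 libraries, no read counts and unknown depth, an interval missing from a list was not detectable at that list's threshold and is not shown to be closed chromatin. The promoters of Alas2 and Alas1 had no thresholded value in both replicates, so their enrichment was not recomputed.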
